A study of Mus musculus with 56 samples.

Results

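The genes described here are 9 amino acid transporters of the mouse liver, Slc1a2, Slc3a2, Slc7a2, Slc38a2, Slc38a3, Slc38a4, Slc43a1, Slc16a10 and Slc6a9. They were chosen by name, for what they transport, with earlier results of these data known. They make up 9 of the 25415 genes listed by the authors. The study sequenced liver RNA of 56 mice, all C57BL/6J females aged 9 weeks that had been kept pathogen-free in a cycle of 12 h light and 12 h dark. For 7 days the animals had received food in the day only (daytime-restricted feeding, DRF, 28 animals) or in the night only (nighttime-restricted feeding, NRF, 28 animals), and NRF was the reference regimen. All animals were on normal chow, the labels name no engineered allele, and the exact hours of feeding are not given in the sources used here. Zeitgeber time (ZT) counts hours from lights on, and livers were taken every 4 h from ZT0 to ZT24, which gave 7 times and 14 groups of 4 animals.

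The liver takes up amino acids from portal blood after a meal and, in the fasted state, for the synthesis of glucose and urea. Uptake runs through sodium-coupled carriers and through facilitated carriers and exchangers, while other carriers release amino acids to the blood. Several of these genes are known targets of hormones and of the response to amino acid shortage, and some are restricted to the hepatocytes around the central vein, where glutamine is made. The comparison of DRF with NRF asks whether their daily rhythms followed the inverted time of feeding.

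Values are scaled counts, which are whole counts recovered from the deposited values and divided by a library scale of 304 to 723 recovered counts per unit. The total of recovered counts was 306.3 M in the smallest library and 687.8 M in the largest (M, mega), above the sequencing depth described for the study, so they are not reads. The 9 members had median recovered counts of between 3795 (Slc43a1) and 247520 (Slc38a3), and since these are not reads, the counting error behind them is not known here. Exon sequence shared with genes on the opposite strand amounted to 30.2% of Slc6a9 (B4galt2, Ccdc24 and Gm17114), 6.95% of Slc7a2 (Gm26584) and 1.44% of Slc1a2 (Gm13872). The libraries kept strand, but whether the counting used it is not given in the sources used here, so for these 3 genes reads of the partner genes cannot be told apart.

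Promoter sequences were available for 7 of the 9 members in RefSeq tables of GRCm38.p6, as 11 windows of 300 bases that span a transcript start. Slc7a2 and Slc38a3 had no window. Of the windows printed below, those of Slc1a2 and Slc43a1 lie inside the span that GENCODE gives the gene. Both are at a RefSeq start downstream of the GENCODE start. The windows of Slc43a1 and Slc16a10, the members with the smallest shift of their peak between regimens, and of Slc1a2, a member with a large one, are printed 5′ to 3′ on the strand of the gene. Capitals mark the E-box CACGTG, the element bound by the core clock activators.
Slc43a1, chr2:84840073-84840372, plus strand: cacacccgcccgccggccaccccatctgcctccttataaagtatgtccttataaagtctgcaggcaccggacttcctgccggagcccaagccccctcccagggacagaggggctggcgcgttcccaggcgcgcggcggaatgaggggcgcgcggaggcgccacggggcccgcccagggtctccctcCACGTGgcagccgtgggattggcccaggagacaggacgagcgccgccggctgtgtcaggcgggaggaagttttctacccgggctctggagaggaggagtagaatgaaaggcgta
Slc16a10, chr10:40142205-40142504, minus strand: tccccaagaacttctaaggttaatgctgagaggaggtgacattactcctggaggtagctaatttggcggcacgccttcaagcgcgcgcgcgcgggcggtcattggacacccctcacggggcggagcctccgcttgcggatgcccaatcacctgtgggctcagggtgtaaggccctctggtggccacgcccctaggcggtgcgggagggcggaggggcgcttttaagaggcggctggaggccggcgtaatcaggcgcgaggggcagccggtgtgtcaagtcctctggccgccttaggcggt
Slc1a2, chr2:102706188-102706487, plus strand: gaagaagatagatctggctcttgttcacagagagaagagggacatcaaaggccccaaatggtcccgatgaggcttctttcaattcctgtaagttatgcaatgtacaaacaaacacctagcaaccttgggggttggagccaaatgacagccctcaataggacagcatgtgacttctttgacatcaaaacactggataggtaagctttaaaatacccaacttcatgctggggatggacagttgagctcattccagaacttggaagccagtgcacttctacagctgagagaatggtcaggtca
The E-box of Slc43a1 lay at -64 from the RefSeq start of its window, inside the span of the gene. It was the only match in the 11 windows to any of the motifs searched on both strands. Of all 32851 windows, 7.15% held CACGTG. The other motifs, without a match in these windows, were the D-box (TTATGTAA or TTACGTAA, 1.06% of all windows), the ROR element (0.219%), the cAMP response element (TGACGTCA, 1.79%), the core of the amino acid response element (TGATGNAA, 3.97%), the glucocorticoid response element (0.475%) and the forkhead motif (TGTTTAC, 3.65%).

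Per kb of exon, the glutamine transporter Slc38a3 was the most abundant member and the leucine transporter Slc43a1 the least. In bulk liver, fewer cells of a type and less RNA per cell cannot be told apart. The mean level over all 56 libraries was 105.3 ± 34.6 scaled counts per kb (SD) for Slc38a3, 64.1 ± 21.1 for Slc38a4, 33.0 ± 8.68 for Slc16a10, 12.6 ± 7.55 for Slc7a2 and 8.47 ± 2.76 for Slc1a2. It was 3.21 ± 1.09 for Slc38a2, 3.01 ± 0.307 for Slc3a2, 2.22 ± 0.809 for Slc6a9 and 1.39 ± 0.434 for Slc43a1. Some neighbours in this order did not differ beyond their spread: Slc38a2 exceeded Slc3a2 in 29 of 56 libraries and Slc7a2 exceeded Slc1a2 in 39. Slc38a4 exceeded Slc16a10, Slc16a10 exceeded Slc7a2, and Slc1a2 exceeded Slc38a2 in all 56. The mean of Slc38a3 was above that of 98.3% of all genes tested and the mean of Slc43a1 above that of 62.3%.

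**Figure D1:**
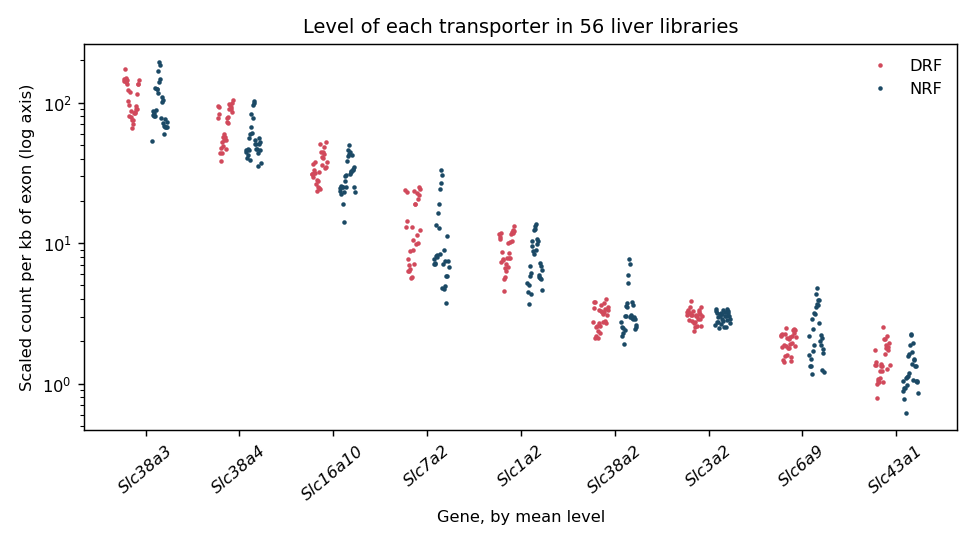
Scaled counts per kb of exon (log axis) of the 9 transporters, ordered by mean level, with 1 point per library, DRF in red and NRF in blue. Slc38a3 (mean 105.3) and Slc38a4 (64.1) stand above the rest, and Slc3a2 (3.01 ± 0.307) has the narrowest spread.

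Most of the transporters oscillated under both regimens, and the rhythm of most differed between them. A rhythm was called when the F test of a 24-h cosine, fitted to log2(scaled count + 1) with limma, gave an adjusted p below 0.05. Under DRF 8 of the 9 members were rhythmic, where 34.9% of all 25378 genes tested were, and under NRF 8 of 9, where 43.5% were. The exceptions were Slc6a9 under DRF (adjusted p = 0.325) and Slc3a2 under NRF (adjusted p = 0.792). The rhythm differed between regimens for 8 of 9 members, against 38.7% of all genes, and the member that missed the test was Slc3a2 (adjusted p = 0.0657). All 9 members have a mean of at least 5 scaled counts, and among the 8876 genes at that level, tested alone, the shares were higher: 60.8% rhythmic under DRF, 65% under NRF and 63.5% with a different rhythm, with 8, 8 and 9 members called. The median fitted amplitude, the height of the cosine above its mean in log2 units, was 0.43 under DRF and 0.50 under NRF over the 9 members, against 0.17 and 0.19 over the genes with a mean of at least 5 scaled counts. Over all genes tested the medians were 0.09 and 0.10, but the added 1 shrinks the amplitude of low genes, so these are no like-for-like background.

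Of the 7 members rhythmic in both regimens, 4 had peaks 8 to 12 h apart, the range called phase-inverted, none had peaks within 4 h, the range called phase-locked, and 3 lay between. With the values as deposited, 2 of the 7 were phase-inverted (Slc7a2 and Slc38a3), 3 lay between and 2 were phase-locked (Slc43a1 at 3.885 h and Slc16a10 at 2.955 h), and with median-of-ratios scaling 1 was phase-locked. In the main run, among all 5868 genes rhythmic in both regimens (23.1% of those tested), 50.9% were phase-inverted and 24.6% phase-locked. These shares were not counted with the values as deposited or with the other scaling. The median shift was 8.24 h for the 7 members and 8.14 h for the 5868 genes. Under NRF the fitted peaks of the 8 rhythmic members lay from 9.42 to 15.8 h. Their highest group means under NRF were all at ZT12, except that of Slc16a10 at ZT16. Under DRF, 6 of the 8 rhythmic members peaked in the dark phase, from 18.5 to 21.5 h, and Slc38a3 and Slc3a2 peaked at 2.09 and 1.996 h. A shift of exactly 12 h at equal amplitude was also tested, and 7 of 9 members departed from it, against 34.2% of all genes. Among the genes with a mean of at least 5 scaled counts, tested alone, 54.4% departed. Slc7a2 (adjusted p = 0.568) and Slc3a2 (adjusted p = 0.26) did not pass, which does not show a full inversion.

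**Figure D2:**
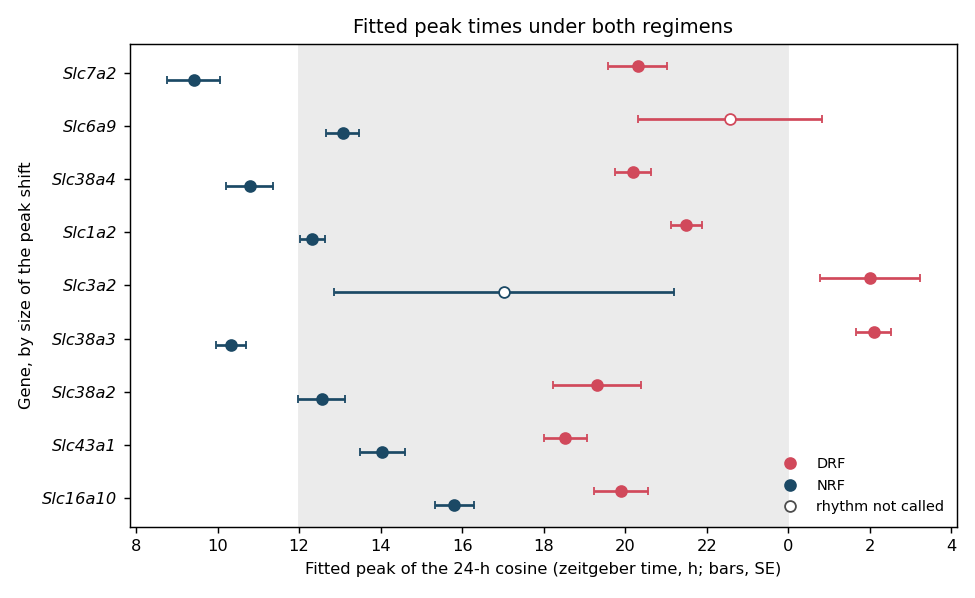
Fitted peak time of the 24-h cosine of each transporter (h of zeitgeber time, axis running past ZT24 to ZT4, dark phase shaded), with DRF in red, NRF in blue, bars for the SE and open circles where no rhythm was called. The pairs of peaks lie between 4.09 h (Slc16a10) and 10.9 h (Slc7a2) apart.

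Among the sodium-coupled carriers, Slc38a3 (ENSMUSG00000010064, chromosome 9, 107650634 to 107669530, minus strand, GRCm38) encodes the system N transporter for glutamine, asparagine and histidine, which can run in either direction. At ZT12 its 4 NRF animals had 738, 1034, 773 and 981 scaled counts and its 4 DRF animals 458, 414, 396 and 346. At ZT0 the NRF animals had 281, 429, 457 and 426 and the DRF animals 757, 781, 914 and 791. The groups did not overlap at either time and stood in opposite order. The log2 difference, DRF minus NRF, was -1.12 ± 0.14 (SE) at ZT12 (adjusted p = 3.19e-08) and 1.04 ± 0.14 at ZT0 (adjusted p = 1.36e-07). Its peak fell at 2.09 h ± 0.437 (SE) with day feeding and at 10.3 h ± 0.365 with night feeding, in the light phase in both cases. The amplitudes were 0.50 ± 0.05 and 0.61 ± 0.05 log2 units, and their difference was -0.11 ± 0.08. With the values as deposited, Slc38a3 no longer departed from a full inversion (adjusted p = 0.582).

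Slc38a2 (ENSMUSG00000022462, chromosome 15, 96687392 to 96699730, minus strand) and Slc38a4 (ENSMUSG00000022464, chromosome 15, 96994820 to 97055956, minus strand) are neighbours in the genome and encode system A carriers of small neutral amino acids such as alanine. Slc38a4 is largely a liver gene, whereas Slc38a2 is widely expressed and known for its induction when amino acids are scarce. Under NRF Slc38a2 had a narrow peak at ZT12, where the animals had 45.9, 52.4, 68.4 and 62.8 scaled counts. Every other NRF library had between 16.98 and 33.5. Under DRF all 28 libraries lay between 18.6 and 35.4, with the highest group mean of 30.8 ± 4.67 (SD, n = 4) at ZT20. Its fitted amplitude was 0.24 ± 0.07 under DRF and 0.50 ± 0.07 under NRF, and the peaks were 6.75 h ± 1.21 (SE) apart, at 19.3 and 12.6 h. At ZT12 the DRF animals had 22.8, 20.2, 29.1 and 32.3, all below the NRF animals, and the log2 difference was -1.11 ± 0.14 (adjusted p = 4.10e-08). The rhythm of Slc38a2 under DRF was near the threshold (adjusted p = 0.0271) and was lost with the length index of each library as a covariate (adjusted p = 0.118), where its amplitude was 0.21.

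Slc38a4 had as strong a rhythm under DRF as under NRF, with amplitudes of 0.55 ± 0.07 and 0.45 ± 0.06. Under NRF its 4 animals at ZT12 had 332, 411, 424 and 441 scaled counts, and at ZT0 189, 196, 172 and 181. Under DRF the order of these times was the reverse, with 256, 244, 230 and 198 at ZT12 and 406, 332, 394 and 354 at ZT0. Under DRF it stayed high through the dark phase, at 398.5 ± 17.4 (SD, n = 4) at ZT20 and 405.0 ± 34.4 at ZT24, while under NRF the group mean was 401.9 ± 47.9 at ZT12 and no more than 288.0 ± 47.1 at any other time. Slc38a4 was the member with a higher rhythm-adjusted mean under DRF, by 0.24 ± 0.07 log2 units (adjusted p = 0.0131). Its peaks lay at 20.2 and 10.8 h, 9.41 h ± 0.728 apart.

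Slc1a2 (ENSMUSG00000005089, chromosome 2, 102658659 to 102790784, plus strand) encodes a high-affinity glutamate and aspartate transporter that in liver is known from pericentral hepatocytes. Its rhythm had the smallest adjusted p of the 9 under each regimen, 1.88e-11 under DRF and 1.61e-15 under NRF. At ZT12 the NRF animals had 163, 165, 174 and 179 scaled counts, and the DRF animals 83.8, 92.6, 103.7 and 89.2. At ZT0 the NRF animals had 68.4, 59.5, 48.3 and 66.3, and the DRF animals 153, 146, 141 and 154. At neither time did any animal of one regimen reach the range of the other. The DRF peak lay at 21.5 h ± 0.37 and the NRF peak at 12.3 h ± 0.312, with 9.17 h ± 0.485 between them. The departure from a full inversion was called (adjusted p = 1.94e-05), and the shift fell short of 12 h by 2.83 h.

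Slc7a2 (ENSMUSG00000031596, chromosome 8, 40862396 to 40922308, plus strand) encodes the cationic amino acid transporter of hepatocytes, which carries arginine, lysine and ornithine. It had the largest amplitudes of the 9, at 0.77 ± 0.15 under DRF and 0.88 ± 0.15 under NRF, and also the largest SE of the 9. Under NRF the ZT12 animals had 222, 303, 247 and 278 scaled counts, and 4 h later the ZT16 animals had 43.5, 64.8, 82.2 and 43.2. Under DRF the order was the reverse, with 52.6, 96.8, 81.6 and 64.7 at ZT12 and 213, 174, 174 and 90.2 at ZT16. The difference between regimens thus changed sign between these times, from -1.84 ± 0.29 (adjusted p = 6.71e-06) to 1.45 ± 0.29 (adjusted p = 0.000348). Under DRF the animals at ZT16, ZT20, ZT24 and ZT0 ranged from 90.2 to 227 and those at ZT4, ZT8 and ZT12 from 51.4 to 119. Its fitted peaks, at 20.3 and 9.42 h, were 10.9 h ± 0.967 apart, while its highest group means were at ZT24 under DRF and ZT12 under NRF.

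Slc6a9 (ENSMUSG00000028542, chromosome 4, 117834506 to 117875198, plus strand) encodes a sodium- and chloride-coupled glycine transporter. It was rhythmic under NRF (adjusted p = 8.22e-12) with an amplitude of 0.67 ± 0.06, and under DRF its amplitude was 0.12 ± 0.06. At ZT12 the NRF animals had 22.2, 17.96, 24.8 and 18.9 scaled counts and at ZT16 18.6, 20.2, 20.1 and 13.9. All 28 DRF libraries lay between 7.40 and 12.7, below each of these 8 NRF libraries. The rhythm differed between regimens (adjusted p = 1.92e-09), and the amplitude difference, DRF minus NRF, was -0.55 ± 0.09 (SE) log2 units. The rhythm-adjusted mean was lower under DRF, with a log2 difference of -0.30 ± 0.07 (adjusted p = 0.00152).

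Slc43a1 (ENSMUSG00000027075, chromosome 2, 84838850 to 84863594, plus strand) encodes a facilitated carrier of leucine and other large neutral amino acids, and Slc16a10 (ENSMUSG00000019838, chromosome 10, 40033532 to 40142258, minus strand) one of aromatic amino acids that in liver works in efflux. Their peaks moved least: 4.49 h ± 0.763 for Slc43a1, from 14.04 h under NRF to 18.5 h under DRF, and 4.09 h ± 0.819 for Slc16a10, from 15.8 to 19.9 h. The fitted peaks of both lay in the dark phase under both regimens. The means of Slc16a10 at ZT16 were 316.6 ± 44.3 (SD, n = 4) under DRF and 310.1 ± 59.1 under NRF, with overlapping animals. At ZT12, however, the 4 DRF animals of Slc16a10 had 186, 182, 235 and 179 scaled counts and the NRF animals 224, 280, 305 and 339, and Slc43a1 had 7.59, 7.07, 7.68 and 5.90 under DRF against 9.23, 10.8, 12.8 and 12.7 under NRF. The log2 differences were -0.55 ± 0.15 (adjusted p = 0.0101) for Slc16a10, with 1 DRF animal inside the NRF range, and -0.61 ± 0.15 (adjusted p = 0.00233) for Slc43a1. Their departures from a full inversion had the smallest adjusted p of the 9, at 2.56e-07 for Slc16a10 and 1.21e-07 for Slc43a1.

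Slc3a2 (ENSMUSG00000010095, chromosome 19, 8706882 to 8723369, minus strand) encodes the heavy chain that brings several exchangers, those of large neutral amino acids among them, to the cell surface. It was the flattest member. Its 28 DRF libraries lay between 8.39 and 13.6 scaled counts and its 28 NRF libraries between 8.82 and 12.0. Its rhythm under DRF was called (adjusted p = 0.0225) with an amplitude of 0.11 ± 0.03, against 0.03 ± 0.04 under NRF. The regimens differed at ZT4 alone, with 11.2, 12.4, 11.2 and 13.6 under DRF and 9.64, 9.64, 10.46 and 8.82 under NRF (log2 difference 0.30 ± 0.09, adjusted p = 0.0101). Leaving out DRF ZT4 animal 4 ended that call (adjusted p = 0.0613), and leaving out DRF ZT12 animal 1 or 3 or DRF ZT16 animal 3 ended the call of a rhythm under DRF (adjusted p up to 0.0664).

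**Figure D3:**
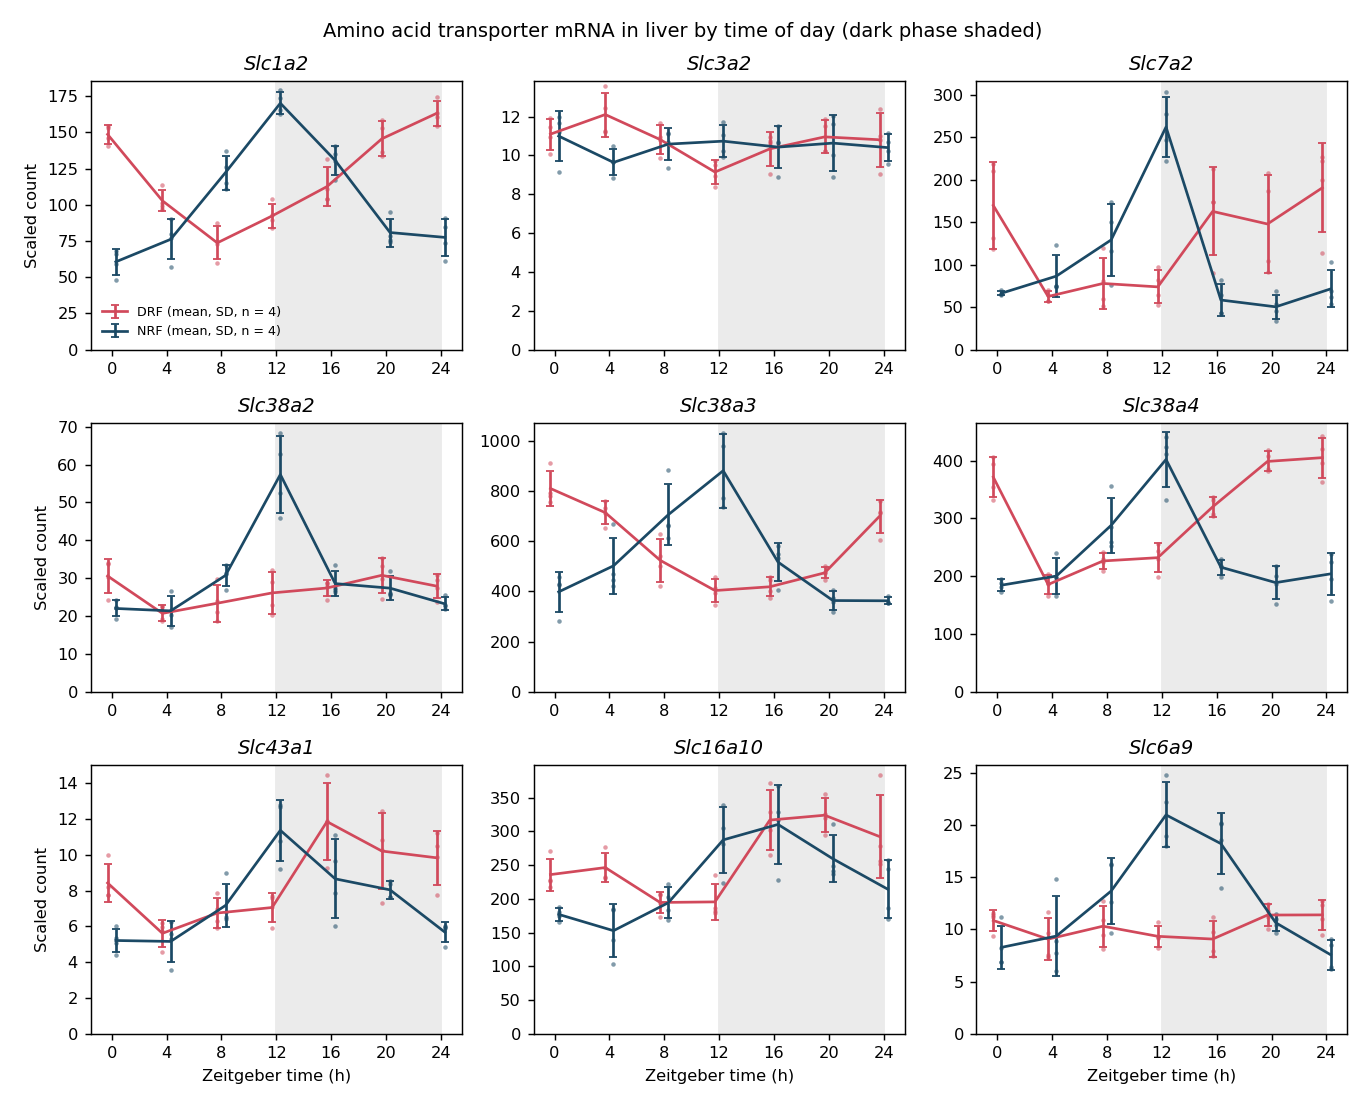
Scaled counts of the 9 transporters against zeitgeber time (h), with the mean and SD of 4 animals per regimen and time, a point for each animal, DRF in red, NRF in blue and the dark phase shaded. At ZT12 the NRF means lie above the DRF means for every member, from 10.7 against 9.14 for Slc3a2 to 262.4 against 73.9 for Slc7a2.

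Each of the 9 members differed between regimens at 1 or more times, as did 46% of all genes, and ZT12 was the time with the most members called. At ZT12, 8 of the 9 members were lower under DRF in limma, where 8.08% of all genes tested were lower and 7.02% higher, and the median log2 difference was -0.88 over the members and -0.0018 over all genes. Among the genes with a mean of at least 5 scaled counts, tested alone, 30.2% differed at ZT12, and between 26.7% and 38.2% at each of the 7 times. The animals of the regimens did not overlap for 8 members, but the share of all genes without overlap was not counted, so this number has no background. These included Slc3a2, whose difference missed the test (-0.21 ± 0.09, adjusted p = 0.103), and left out Slc16a10. At ZT0, 6 members were higher under DRF and none lower, where 16% of all genes differed, 7.97% higher and 8.01% lower: Slc1a2, Slc7a2, Slc38a2, Slc38a3, Slc38a4 and Slc43a1. At ZT24, 7 were higher and none lower, where 7.1% of all genes were higher and 6.94% lower, the 7 being those of ZT0 without Slc38a2 and with Slc16a10 and Slc6a9. The members that passed at ZT0 had log2 differences of 0.45 (Slc38a2) to 1.29 (Slc1a2 and Slc7a2).

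At the other times fewer members were called, and ZT16 was the only time with calls in both directions. At ZT4, 4 were higher under DRF (10.8% of all genes, with 9.55% lower), namely Slc16a10 by 0.72 ± 0.15, Slc38a3 by 0.53 ± 0.14, Slc1a2 by 0.44 ± 0.11 and Slc3a2. At ZT8, 4 were lower under DRF (7.24% of all genes, with 5.66% higher), with log2 differences of -0.73 ± 0.11 for Slc1a2, -0.43 ± 0.14 for Slc38a3, -0.40 ± 0.14 for Slc38a2 and -0.34 ± 0.11 for Slc38a4. At ZT16, Slc7a2, Slc38a4 (0.57 ± 0.11) and Slc43a1 (0.43 ± 0.15) were higher under DRF (8.71% of all genes) and Slc6a9 was lower (6.39% of all genes), with a log2 difference of -0.93 ± 0.18. At ZT20, Slc7a2 (1.49 ± 0.29), Slc38a4 (1.09 ± 0.11) and Slc1a2 (0.84 ± 0.11) were higher (7.67% of all genes, with 6.05% lower). The counts at ZT4 and ZT8 rested on few libraries or on the kind of value: the length index, the rank correlation of exon length with a library's deviation from the mean library, was -0.258 ± 0.0234 (SD, n = 4) under DRF and -0.0165 ± 0.177 under NRF at ZT4, and with it as a covariate 2 members were called there in place of 4. At ZT8, 1 was called with the values as deposited, and 1 or 2 without DRF animal 1 or 2 or NRF animal 2 or 3 of that time.

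**Figure D4:**
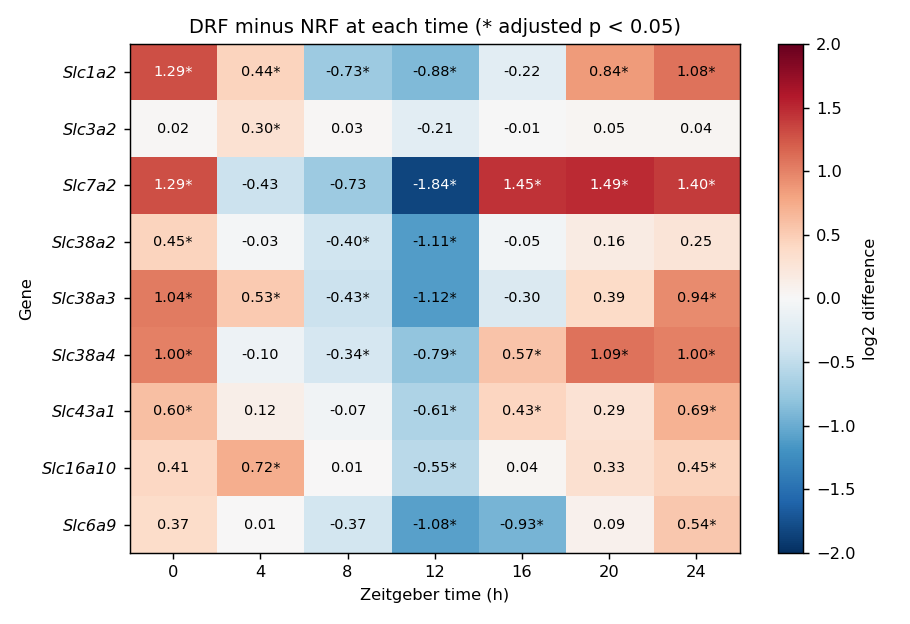
Log2 difference, DRF minus NRF, of each transporter (rows) at each zeitgeber time in h (columns), from limma on 4 animals per group, with red for higher under DRF, blue for lower and an asterisk for an adjusted p below 0.05. The ZT12 column is blue in all 9 rows, from -0.21 to -1.84, and ZT0 and ZT24 are red or near 0.

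Over the whole day, 2 members differed in rhythm-adjusted mean, Slc38a4 higher and Slc6a9 lower under DRF. Of all genes 6.77% differed (4.08% higher and 2.69% lower). Among those with a mean of at least 5 scaled counts, tested alone, 14.8% differed. A 12-h component in addition to the 24-h cosine was called under NRF for 3 members, Slc38a2 (adjusted p = 0.00608), Slc38a4 (0.00969) and Slc7a2 (0.0247), where 1.99% of all genes had one. Under DRF it was called for Slc38a4 (adjusted p = 0.0227), where 4.7% of all genes had one. Among the genes with a mean of at least 5 scaled counts, tested alone, 6.56% had one under NRF and 12.9% under DRF. The 12-h component differed between regimens for none of the 9 at an adjusted p below 0.05, where 0.106% of all genes did. At an unadjusted p below 0.05 in this F test it differed for 2, Slc3a2 (0.014) and Slc16a10 (0.015). The share of all genes at that unadjusted level was not counted. With the values as deposited, none of the 4 calls of a 12-h component held. ZT24 and ZT0, the same time of day, differed for none of the 9 under DRF or NRF in limma at the adjusted threshold, where 3.07% and 7.83% of all genes did. At an unadjusted p below 0.05, 1 did, Slc1a2 under NRF (unadjusted p = 0.00407, log2 difference 0.35 ± 0.11), and here too the unadjusted share of all genes was not counted.

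Other genes of amino acid handling were counted in the same fits. The shares over all genes tested, to set beside each list, were 34.9% rhythmic under DRF, 43.5% under NRF and 38.7% with a different rhythm. Among the genes with a mean of at least 5 scaled counts, tested alone, they were 60.8%, 65% and 63.5%. Some of the listed genes, unlike the members, lay below that level. Of 28 further amino acid transporters of the plasma membrane 20 were tested, of which 9 were rhythmic under DRF, 12 under NRF, and 10 had a different rhythm. At ZT12, 2 of the 20 were lower and 1 higher under DRF, where 8.08% of all genes were lower and 7.02% higher. The median log2 difference of the 20 at ZT12 was -0.01. At ZT0, 1 of the 20 was higher and 3 lower, where 7.97% of all genes were higher and 8.01% lower. The 3 with the smallest p in the rhythm difference were Slc1a4, an exchanger of small neutral amino acids, Slc6a6, a taurine transporter, and Slc6a13, a carrier of gamma-aminobutyrate and taurine. All 3 peaked in the light phase under DRF, at 8.93, 9.32 and 11.7 h, and in the dark phase under NRF, at 23.7, 19.99 and 22.1 h, whereas 6 of the 8 members rhythmic under DRF had their DRF peak in the dark phase. The log2 difference of Slc1a4 was 1.51 ± 0.20 at ZT12 (adjusted p = 2.96e-07) and -1.26 ± 0.20 at ZT0 (adjusted p = 7.99e-06).

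Of 10 gene symbols listed for lysosomal transporters 8 were tested, 5 were rhythmic under DRF, 4 under NRF and 5 differed in rhythm. The untested symbol Slc66a1 is another name of Pqlc2, which was tested, and the 8 include Slc29a3, a nucleoside transporter. The leading 3 were Slc38a7, a glutamine and asparagine exporter, Pqlc2, a carrier of cationic amino acids, and Ctns, the cystine exporter, with NRF amplitudes of 0.27, 0.36 and 0.13. All 9 mitochondrial carriers were tested, 5 were rhythmic under DRF, 8 under NRF and 8 differed. Among these, the aspartate and glutamate carrier Slc25a13 peaked at 21.5 and 13.1 h under DRF and NRF, the glutamate carrier Slc25a22 at 20.7 and 7.54 h, and the ornithine carrier Slc25a15 at 16.4 and 20.6 h. Slc25a13 shared the signs of Slc1a2 at ZT12 (-0.30 ± 0.08) and ZT0 (0.69 ± 0.08), whereas Slc25a15 was higher under DRF at ZT12 by 0.77 ± 0.12.

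Of the 14 genes of the amino acid response, Atf4 and genes known to be induced by its product, 7 were rhythmic under DRF, 5 under NRF and 5 differed. At ZT16, 8 of the 14 were higher under DRF and none lower, where 8.71% of all genes were higher and 6.39% lower. At ZT12, 3 were lower and none higher, where 8.08% of all genes were lower and 7.02% higher. Some of the 14 were near the floor, such as Ddit3 (mean of 0.0021 scaled counts), Stc2 (0.162) and Nupr1 (0.222). Trib3, a pseudokinase that binds AKT, had the smallest p, with 13.8 ± 2.88 scaled counts (SD, n = 4) at its highest group mean under NRF (ZT8) and 5.95 ± 1.77 under DRF (ZT16). Sesn2, a leucine sensor, and Gpt2, a mitochondrial alanine aminotransferase, followed. The peaks of Gpt2, at 20.4 and 15.8 h under DRF and NRF, were close to those of Slc16a10, at 19.9 and 15.8 h. Of 11 gene symbols listed for amino acid sensing at mTORC1 10 were tested, 7 were rhythmic under DRF, 9 under NRF and 8 differed, led by Flcn, Castor2 and Castor1. The untested symbol, Samtor, is another name of Bmt2, which was tested. Flcn, part of the complex that acts on the Rag GTPases, peaked at 18.8 and 8.26 h.

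Over the 14 group means the members fell into partly different profiles. The closest pair was Slc7a2 and Slc38a4 (Pearson r = 0.933 over 14 group means, which share the 56 libraries), followed by Slc1a2 and Slc38a4 (0.854), Slc43a1 and Slc16a10 (0.837) and Slc38a2 and Slc6a9 (0.818). The r of Slc3a2 with Slc7a2, Slc6a9, Slc43a1 and Slc38a2 was between 0.0243 and 0.0985. Among all genes with a mean of at least 5 scaled counts, the profile most like Slc1a2 was that of Slc2a2, the glucose transporter of hepatocytes (r = 0.981), and the one most like Slc38a4 was Pck1, an enzyme of gluconeogenesis (0.972). The nearest for the others were Sh3rf1 for Slc7a2 (0.949), Rad54l2 for Slc38a2 (0.906), Gnl1 for Slc38a3 (0.970), Crim1 for Slc43a1 (0.963), Fastkd1 for Slc16a10 (0.933), coagulation factor F5 for Slc6a9 (0.960) and Cox10 for Slc3a2 (0.853). The second were, in the order of Slc1a2, Slc3a2, Slc7a2, Slc38a2, Slc38a3, Slc38a4, Slc43a1, Slc16a10 and Slc6a9, the genes Pdcd6, Ece1, Slc38a4, Bach1, Aamp, Ppp3ca, Stard5, Itch and Slc17a2, with r from 0.841 to 0.959.

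Hepatocyte markers held in every library, with 4 of 5 listed genes tested and a sum of between 93554 and 150080 scaled counts. The 8 markers of pericentral hepatocytes, the zone of Slc1a2 and Slc38a3, summed to group means of 8590 under NRF and 7275 under DRF at ZT12, and of 5104 under NRF and 8192 under DRF at ZT0. These are the directions of the members called at those times. The sum gives abundant markers the most weight, and the direction of each marker was not compared. Of these 8 genes, 5 differed in rhythm, 1 differed at ZT12 and 3 at ZT0. The shares of all genes were 38.7%, 15.1% and 16%. Among genes with a mean of at least 5 scaled counts, tested alone, they were 63.5%, 30.2% and 32%. None of the 8 was at 0 in any library, and their part in the result was not tested. The 6 periportal markers, Pck1 among them, summed to 10154 under NRF and 10646 under DRF at ZT12 and to 10940 and 13266 at ZT0. Sums over all libraries were 338 to 475 for 5 markers of sinusoidal endothelium, 490 to 1171 for 5 of Kupffer cells, 644 to 922 for 5 of stellate cells, 20.6 to 40.8 for 5 of cholangiocytes and 0.718 to 3.76 for 5 of lymphocytes. Of 4 adipocyte markers, Cidec and Car3, which liver also expresses, were tested, and their sum was 703 under NRF and 1325 under DRF at ZT12, against 1381 and 730 at ZT0. Of 4 pancreas markers Cela1 was tested, at 1.58 to 4.73 scaled counts.

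The transcript table listed between 2 transcripts (Slc38a2) and 13 (Slc38a3) for each member. The transcript with the largest product of deposited value and length was protein-coding for all 9, and transcripts were not compared between regimens.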

How the data were processed

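RNA-seq of whole liver was analysed in 56 libraries, 4 animals for each of 2 regimens and 7 times. Per the labels, libraries were depleted of ribosomal RNA and kept strand. The submitters' processing notes name CASAVA 1.8, featureCounts 1.5.0-p3, mm10 and GRCm38.p6, without their roles. The authors deposited 1 value per gene named TPM, used here as a score: the value times exon length followed the logarithm of 1 plus a scaled whole count, so the deposited scores are not linear TPM.

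The scaled count was recovered with exon lengths of GENCODE M21 or, for 2182 of 25415 genes, a length searched from the values, and 37 genes were left out. Within 0.05 of a whole number were 99.17% of recovered counts of up to 10 and 96.73% of those from 1000 to 20000. Higher counts were not part of that check, and Slc38a3, the most abundant member, came within 0.05 in 30 of 56 libraries and within 0.2 in 54. The transcript table was used for a description, and circular RNAs were not used.

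Tests used limma 3.58.1 in R 4.3.3 on log2(scaled count + 1), with empirical Bayes variance following the mean, over 25378 genes, and Benjamini-Hochberg adjusted p below 0.05 was called. Genes had a mean deposited value of at least 0.1. The model held regimen with a 24-h cosine and sine per regimen, or with 12-h terms added, or 14 groups for single times. SEs are from these fits. Animals, not reads, were the replicates. In the fits of 14 groups the p-values rest on the spread between animals. In the cosine fits they rest on that spread together with the misfit of the group means to the cosine. Within groups, libraries correlated at r of 0.946 to 0.988.

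Groups were taken from the labels. The members and lists were chosen with earlier results of these data known. Named genes were the 9 members, the 3 genes of each list with the smallest p among those with a called rhythm difference, and the 2 genes most like each member. Alternatives were other pseudocounts, scaling, filters, a length covariate, a replicate block, rank tests, other fits of the cosine, and leaving out libraries or times.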

Additional observations from a re-analysis of the deposited data

Results flagged for a closer look

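Of 126 groups of 4 animals, 9 held an animal whose gap to the nearest other animal was large for the range of its group by Dixon's criterion, which chance meets in about 1 in 20 groups. No explanation was tested, and all values are scaled counts.

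Under NRF, Slc7a2 at ZT4 had 123.3 in animal 2 and 73.27 to 75.24 in the others. Slc38a2 had 33.55 in animal 4 at ZT16, where the others had 26.42 to 27.36, and 32 in animal 3 at ZT20, where the others had 25.54 to 26.15. Slc38a3 had 280.8 in animal 1 at ZT0, where the others had 426.1 to 456.7, and 383.5 in animal 3 at ZT24, where the others had 355.2 to 356.5. Slc43a1 had 8.995 in animal 3 at ZT8, where the others had 6.412 to 6.789, and 4.87 in animal 4 at ZT24, where the others had 5.889 to 6.009. Under DRF, Slc3a2 at ZT16 had 9.03 in animal 3 and 10.62 to 10.96 in the others, and Slc16a10 at ZT12 had 234.7 in animal 3 and 178.9 to 185.6 in the others.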

How the results depend on the processing

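No member result changed direction past the threshold under any alternative run. With the values as deposited, 1 member was called at ZT8 in place of 4, and 0 had a 12-h component under DRF or NRF in place of 1 and 3. With the length index as a covariate, 2 were called at ZT4 in place of 4. These causes were not tested. Of 137 counts of members under alternatives, these 4 moved by more than 1.5 times. Of 1341 values of single members 24 lost their call, 16 gained one and 7 phase shifts moved by more than their SE. These totals include the run without the filter, which equalled the main run because the filter removed no gene.

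With the values as deposited, the shift was 7.48 h for Slc1a2, 5.43 h for Slc38a2, 11.4 h for Slc38a3, 7.14 h for Slc38a4 and 2.96 h for Slc16a10, which changed the classes of Slc1a2, Slc38a4, Slc43a1 (3.885 h) and Slc16a10, and the calls of Slc16a10 at ZT12 (adjusted p = 0.233) and ZT24 (0.227) were lost. With the length index, the shift was 10.2 h for Slc1a2 and 9.40 h for Slc38a3, and the calls of Slc38a3 (0.0996) and Slc3a2 (0.203) at ZT4 and the departure of Slc38a4 from inversion (0.0927) were lost. The rhythm difference of Slc3a2 passed under 6 alternatives (0.0157 to 0.0491).

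Leaving out 1 library at a time gave 1 to 4 members at ZT8, 0 to 1 with a 12-h component under DRF (0 without DRF ZT4 animal 1, 3 or 4), 2 to 3 under NRF, 5 to 7 at ZT0 and at ZT24, 3 to 4 at ZT4, ZT16 and ZT20, and 8 at ZT12. Slc38a2 lost its call at ZT8 (adjusted p = 0.0479) without any of 27 libraries (up to 0.217), at ZT0 without DRF animal 3 or 4 or NRF animal 2 (up to 0.0762), and its DRF rhythm without ZT4 animal 1 or 3, ZT8 animal 1 or ZT20 animal 4 (up to 0.0693). At ZT8, Slc38a4 lost its call without DRF animal 1, 2 or 4 or NRF animal 2 or 3 (up to 0.23), and Slc38a3 without DRF animal 2 or 3 or NRF animal 3 (up to 0.169). At ZT16, Slc43a1 did so without DRF animal 1, 2 or 3 or NRF animal 1 or 3 (up to 0.252). At ZT24, Slc16a10 did so without DRF or NRF animal 3 or 4 (up to 0.242), and Slc6a9 without DRF animal 1, 3 or 4 or NRF animal 1 or 4 (up to 0.119). The 12-h component of Slc7a2 under NRF was lost without ZT12 animal 2, 3 or 4 or ZT16 animal 1 (up to 0.0673).

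Libraries with the same replicate number did not deviate together on average, with a mean r of deviations of 0.00321, against -0.00103 for others. Of 56 libraries, 19 correlated best with their own number, and 11.8% of same-number pairs had an r above 0.1. Shared handling of single libraries was not tested. With the replicate number as a block, 4 members were called at ZT20 in place of 3 and the other counts were as before. Median-of-ratios scaling moved the difference between regimens at a time by -0.0213 to 0.0166 log2 units, taken from the mean log2 library factors of that scaling. The recovered counts exceed the depth of the study, so counting error on reads could not be measured, and each group has 4 animals.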
